A study of Mus musculus with 3 samples.

Results

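The genes described here encode the chains of the T cell receptor and of the CD3 complex that carries its signal. They were Cd3d, Cd3e, Cd3g, Cd247, Trac, Trbc1, Trbc2, Trdc and Trgc2, taken by name, and all 9 were found among the 56980 genes of the series. The data are 3 single-cell RNA libraries (10x Genomics) of spleen from wild-type (WT) mice, 1 library for each group. The control mice were not irradiated, the IR mice received 8.5 Gy and a treatment labelled "colvent control", and the IR_HSO mice received 8.5 Gy and HSO, which the series title gives as hemp seed oil. The age of the mice, the number of mice in a library, the time after irradiation and the dose of HSO are not given in the sources used here. As each group is a single library, nothing was tested, no p-value is given, and every comparison is between libraries.

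The receptor of most T cells pairs an alpha with a beta chain, and that of a smaller lineage pairs a gamma with a delta chain. Either pair is assembled with chains of CD3 and a zeta dimer, whose cytoplasmic motifs are phosphorylated by Lck and then bind the kinase ZAP-70. Natural killer (NK) cells carry no rearranged receptor, but they use the zeta chain with other receptors and can transcribe unrearranged receptor genes.

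Several members have near-identical copies, and the sequences are shown because they show which counts could be split between genes. Trbc1 and Trbc2 are the alternative constant genes of the beta chain, with transcripts at chr6:41538218-41539881 and chr6:41546730-41548352 on the plus strand of GRCm38 in GENCODE M21. The series was processed with GRCm39, so these positions are not those of the files. The coding parts are both 518 bases long and differ at 23 positions, of which 1 lies in the first 375 bases, the first coding exon. Bases 376 to 518 hold the other 22, in capitals.
Trbc1: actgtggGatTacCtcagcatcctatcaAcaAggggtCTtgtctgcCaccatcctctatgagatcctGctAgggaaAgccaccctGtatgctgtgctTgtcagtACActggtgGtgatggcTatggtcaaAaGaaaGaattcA
Trbc2: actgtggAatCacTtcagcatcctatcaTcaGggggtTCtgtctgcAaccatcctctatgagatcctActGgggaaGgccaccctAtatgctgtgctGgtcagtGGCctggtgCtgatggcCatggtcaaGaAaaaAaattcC
In the first coding exon 68.5% of all stretches of 90 bases are the same in both genes, and in the last 300 bases of the transcripts none is. Which end of the transcript was read is not given in the sources used here, so the split of beta counts between Trbc1 and Trbc2 is uncertain.

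Trgc2 is 1 of several gamma constant genes, and counts of such related genes may be split in part.

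Cd3d and Cd3g lie head to head with 1355 bases between their starts, and Cd3e lies near them on the same chromosome. Their promoters are shown because the levels of these 3 genes followed each other closely across gates and libraries. The 250 bases before each start are from RefSeq on GRCm38.p6, whose table holds promoters of 4 of the 9 members. That of Cd3d is at chr9:44981536-44981785 on the plus strand, and those of Cd3g and Cd3e are at chr9:44980432-44980681 and chr9:45009612-45009861 on the minus strand. Capitals mark the core of ETS family sites, GGAA on either strand.
Cd3d: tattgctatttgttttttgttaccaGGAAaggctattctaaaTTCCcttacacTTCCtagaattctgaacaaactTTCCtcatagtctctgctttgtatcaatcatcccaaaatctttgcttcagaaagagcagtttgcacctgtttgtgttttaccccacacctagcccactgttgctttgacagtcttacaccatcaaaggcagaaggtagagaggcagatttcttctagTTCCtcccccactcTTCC
Cd3g: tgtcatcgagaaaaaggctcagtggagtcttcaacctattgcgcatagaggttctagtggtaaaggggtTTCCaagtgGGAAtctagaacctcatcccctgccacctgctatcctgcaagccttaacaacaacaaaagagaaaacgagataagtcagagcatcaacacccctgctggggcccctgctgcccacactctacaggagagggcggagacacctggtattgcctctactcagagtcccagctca
Cd3e: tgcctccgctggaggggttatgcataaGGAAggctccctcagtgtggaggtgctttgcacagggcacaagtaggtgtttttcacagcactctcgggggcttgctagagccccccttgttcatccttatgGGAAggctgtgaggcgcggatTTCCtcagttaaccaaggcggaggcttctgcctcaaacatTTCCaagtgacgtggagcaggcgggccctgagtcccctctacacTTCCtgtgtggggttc
The core occurs 6 times in the window of Cd3d, 2 times in that of Cd3g, 5 times in that of Cd3e and 1 time in that of Cd247. It is found in 93.4% of the 32817 promoters of this length, so its presence does not set these genes apart. An E-box, CANNTG, is in all 4 windows and in 66.2% of promoters, and the letters TATAAA are in none of the 4 and in 12.4% of promoters, both strands searched.

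Cells were gated by counts of unique molecular identifiers (UMIs) of genes that are not members. The T cell gate took cells with a UMI of Lat, Thy1 or Bcl11b and none of the B cell genes Cd79a and Cd79b, and held 2625, 8657 and 7198 cells in control, IR and IR_HSO, or 28.6%, 67.3% and 67.9% of the cells kept. The NK-like gate took cells with a UMI of the NK receptor gene Ncr1 and held 442, 3040 and 1868. The gates shared 157, 1526 and 960 cells, 5.98%, 17.6% and 13.3% of the T gate. A B cell gate of 3856, 256 and 200 cells, with at least 2 UMIs of Cd79a and Cd79b and no gate gene of the others, served as background. Its plasma cell markers summed to 1896, 40584 and 33973 counts per 1000000 UMIs of the gate (CPM), so the irradiated B gates were rich in plasma cell transcripts. Median depth in the T gate was 5098, 3421 and 3508 UMIs per cell, and between 34 and 54 cell barcodes were shared by any pair of libraries.

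A UMI of Cd3d, Cd3e or Cd3g was seen in 91.9%, 88.3% and 88.6% of gated T cells, and all 10 of the other T cell markers examined were at or above 5 CPM in each library, with sums of 3313, 3039.9 and 3104 CPM. All 10 NK markers examined were also at or above 5 CPM there, and summed to 1256, 3147 and 2424 CPM. Markers of pancreatic acinar cells summed to 1.16, 750.3 and 3116 CPM over 4 genes, with Ctrb1 and Cpa1 at 0 in control, and those of fibroblasts to 0.0722, 209 and 131 CPM over 4 genes, with Col1a1, Col3a1 and Pdgfra at 0 in control. Of 4 erythroid markers the sum was 973, 50.0 and 1.25 CPM. The part of these cell types in the results was not tested, except that values without cells holding Ncr1 are given. The gate left out 1247, 392 and 330 cells that had at least 2 CD3 UMIs and a gate gene but also a UMI of Cd79a or Cd79b.

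In gated T cells the CD3 and alpha-beta genes of IR stood close to their control level, and the gamma and delta genes stood above it. Of the 9 members, 2 stood above control by 1.5-fold or more in IR, namely Trdc and Trgc2, none stood below it by as much and 7 lay between. Among all 10413 genes with at least 5 CPM in either library, 16.5% were past 1.5-fold, 13.5% higher and 3.01% lower. With 1 CPM added to both sides, the median log2 ratio was -0.06 over the members and 0.16 over all genes. Ratios below are of CPM, and brackets give 95% intervals, which cover counting error only. A sum over a gate does not tell a change in the kinds of cells from a change within cells.

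**Figure D1:**
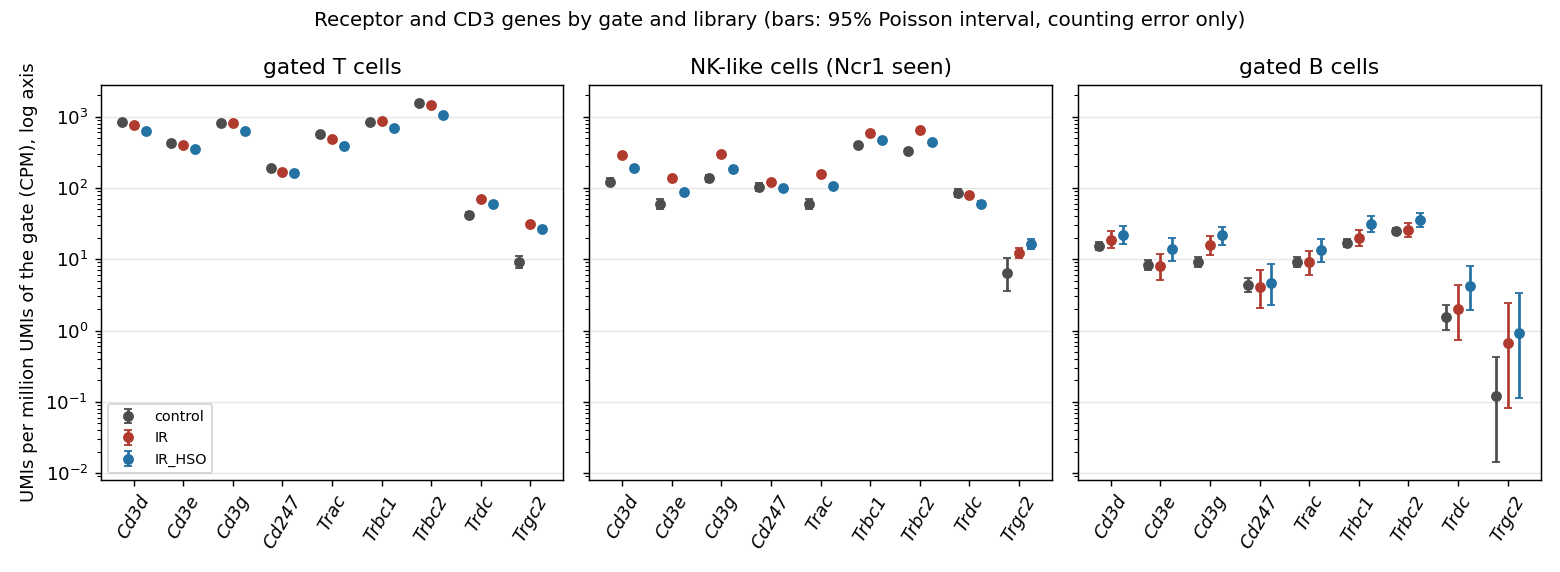
CPM of the gate (log axis) for the 9 genes in gated T cells, NK-like cells and gated B cells of the 3 libraries, with 95% Poisson intervals. In gated T cells Trdc and Trgc2 are lowest in control, and in gated B cells the 9 genes lie between 0.119 and 36.0 CPM.

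The 3 CD3 chains bring the receptor to the surface and signal for it. Cd3d, the delta chain, stood at 831 [816, 847], 765 [756, 775] and 618 [609, 627] CPM in control, IR and IR_HSO. Cd3e, the epsilon chain, which pairs with either of the others, stood at 428 [417, 439], 395 [389, 402] and 351 [345, 358] CPM. Both were highest in control and lowest in IR_HSO, with intervals apart. Cd3g, the gamma chain of CD3, stood at 801 [786, 816], 825 [815, 834] and 621 [612, 630.4] CPM, so that control and IR were close and IR_HSO lay below both. The IR to control ratios were 0.920 [0.9004, 0.941] for Cd3d, 0.923 [0.895, 0.952] for Cd3e and 1.03 [1.007, 1.05] for Cd3g.

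Without cells holding Ncr1 the Cd3d and Cd3e ratios lay nearer to 1. The T gate then held 2468, 7131 and 6238 cells, and the IR to control ratio was 0.996 [0.974, 1.02] for Cd3d, 1.008 [0.977, 1.04] for Cd3e and 1.12 [1.10, 1.15] for Cd3g. Trdc and Trgc2 were again the 2 of 9 members past 1.5-fold, against 16.4% of all genes.

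Fewer cells of IR_HSO showed all 3 CD3 genes. With every cell thinned to 1000 UMIs, which left 2592, 8165 and 6985 T cells, all 3 were seen in 11.4% [10.2, 12.7], 10.9% [10.2, 11.6] and 7.96% [7.34, 8.62] of them in control, IR and IR_HSO. None of the 3 was seen in 20.1% [18.6, 21.7], 23.3% [22.4, 24.2] and 27.2% [26.2, 28.3]. Unthinned, at the unequal depths given above, all 3 were seen in 72.4%, 53.2% and 50.3%. In thinned B cells none of the 3 was seen in 97.0%, 92.5% and 91.4%.

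Cd247 encodes the zeta chain, the main signalling chain of the receptor. Its level was 193 [185, 200.2], 168 [164, 172] and 161 [156, 166] CPM, highest in control, while the intervals of IR and IR_HSO overlapped. The IR to control ratio was 0.872 [0.833, 0.913], and IR_HSO to IR 0.958 [0.922, 0.996], the nearest to 1 of the 9 members in that comparison. Thinned to 1000 UMIs, T cells held a Cd247 UMI at shares of 17.6%, 15.8% and 15.2%, and NK-like cells at 9.89%, 12.8% and 8.64%.

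Trac is the single constant gene of the alpha chain. It stood at 575 [563, 588], 481 [474, 489] and 388 [381, 395] CPM, in that order and with intervals apart. Its IR to control ratio of 0.836 [0.814, 0.859] was the lowest of the 9. Trbc1 stood at 833 [818, 849], 865 [855, 875] and 693 [683, 702] CPM, highest in IR and lowest in IR_HSO. Trbc2 stood at 1536 [1515, 1557], 1476 [1463, 1489] and 1044 [1032, 1055] CPM, with control and IR closer to each other than to IR_HSO. The IR to control ratios were 1.04 [1.02, 1.06] for Trbc1 and 0.961 [0.945, 0.976] for Trbc2.

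IR_HSO stood below IR for all 9 members, none by as much as 1.5-fold. The ratios ran from 0.707 [0.697, 0.717] for Trbc2 to the value of Cd247 above, with 0.754 [0.740, 0.768] for Cd3g, 0.801 [0.787, 0.815] for Trbc1, 0.807 [0.788, 0.826] for Trac, 0.808 [0.793, 0.823] for Cd3d and 0.889 [0.866, 0.912] for Cd3e. Trdc and Trgc2 were at 0.847 [0.796, 0.901] and 0.861 [0.784, 0.945]. Of 10588 genes, 10.3% were past 1.5-fold in this comparison, 5.7% higher and 4.56% lower, and the median log2 ratio was -0.31 over the members and 0.02 over all genes. Without Ncr1 cells the 9 ratios again lay below 1, from 0.702 to 0.966, with none of the 9 past 1.5-fold against 11.3% of all genes. With immunoglobulin, pancreatic, haemoglobin, mitochondrial and ribosomal genes left out of the total, the log2 ratio of Cd247 was 0.02 and the other 8 stayed below 0.

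IR_HSO against control uses the same control library as IR against control, and the same IR_HSO library as the comparison with IR. Trgc2 was past 1.5-fold at 2.89 [2.39, 3.51], and 8 members lay between, with 24% of all 10593 genes past it, 18.8% higher and 5.16% lower. Here the median log2 ratio was -0.28 over the members and 0.18 over all genes. Trdc was at 1.42 [1.30, 1.57], and at 1.55 [1.39, 1.72], past 1.5-fold, without Ncr1 cells, where 24.6% of genes were past it. Trac at 0.675 [0.656, 0.694] and Trbc2 at 0.679 [0.668, 0.691] lay just short of 1.5-fold lower. Ratios of the CD3 chains and Cd247 lay between 0.744 for Cd3d and 0.835 for Cd247. Centred on the median of all genes, Trac, Trbc2 and Cd3d were past 1.5-fold lower in this comparison, and Trdc was no longer past it in IR against control.

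**Figure D2:**
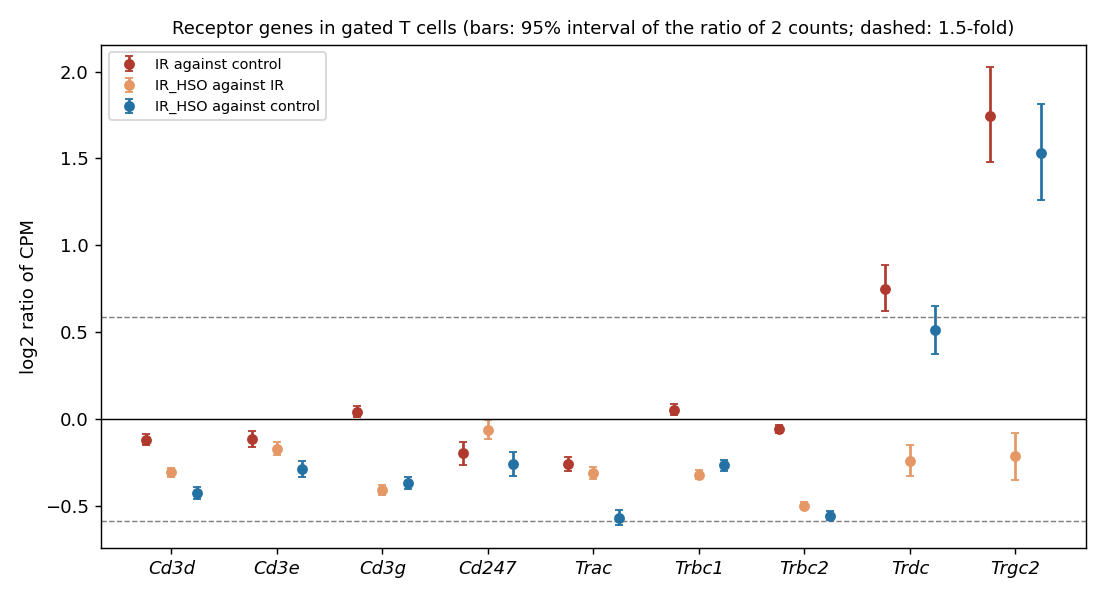
Log2 ratio of CPM in gated T cells for the 9 genes in the 3 comparisons, with 95% intervals and dashed lines at 1.5-fold. All 9 IR_HSO to IR points lie below 0, and Trgc2 lies above the upper line in both comparisons with control.

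Trdc encodes the delta constant region. It stood at 41.7 [38.4, 45.3], 70.2 [67.5, 73.1] and 59.5 [56.7, 62.3] CPM, lowest in control and highest in IR, with intervals apart. The IR to control ratio was 1.68 [1.54, 1.85]. Trgc2 stood at 9.17 [7.65, 10.9], 30.8 [28.9, 32.7] and 26.5 [24.7, 28.4] CPM, again lowest in control, with an IR to control ratio of 3.36 [2.79, 4.07] on 1056 and 127 UMIs. The shares of thinned T cells with Trdc were 2.43% [1.87, 3.10], 4.62% [4.17, 5.10] and 3.95% [3.51, 4.43], and those with Trgc2 1.04% [0.688, 1.51], 2.56% [2.23, 2.93] and 2.16% [1.83, 2.53]. In thinned B cells the share with Trdc was 0.208% in control and 0.508% in IR_HSO, and 0 of 254 cells had it in IR, with an upper limit of 1.44%.

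The other gamma constant genes, which are not among the 9, stood in the same order where they had enough counts. Trgc1 stood at 4.41 [3.37, 5.66], 46.0 [43.7, 48.3] and 34.8 [32.7, 36.9] CPM, an IR to control ratio of 10.4 [8.08, 13.7] from a control level under 5 CPM. Trgc4 stood at 8.67 [7.19, 10.4], 37.4 [35.4, 39.5] and 33.6 [31.5, 35.7] CPM, a ratio of 4.32 [3.58, 5.25]. Trgc3 held 0, 3 and 6 UMIs, too few for a comparison. Gamma genes can also be transcribed in cells whose receptor is alpha-beta, and of 70, 639 and 465 T cells with a Trgc2 UMI, 61.4% [49.0, 72.8], 60.1% [56.2, 63.9] and 55.1% [50.4, 59.6] had a Trac UMI, without thinning.

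**Figure D3:**
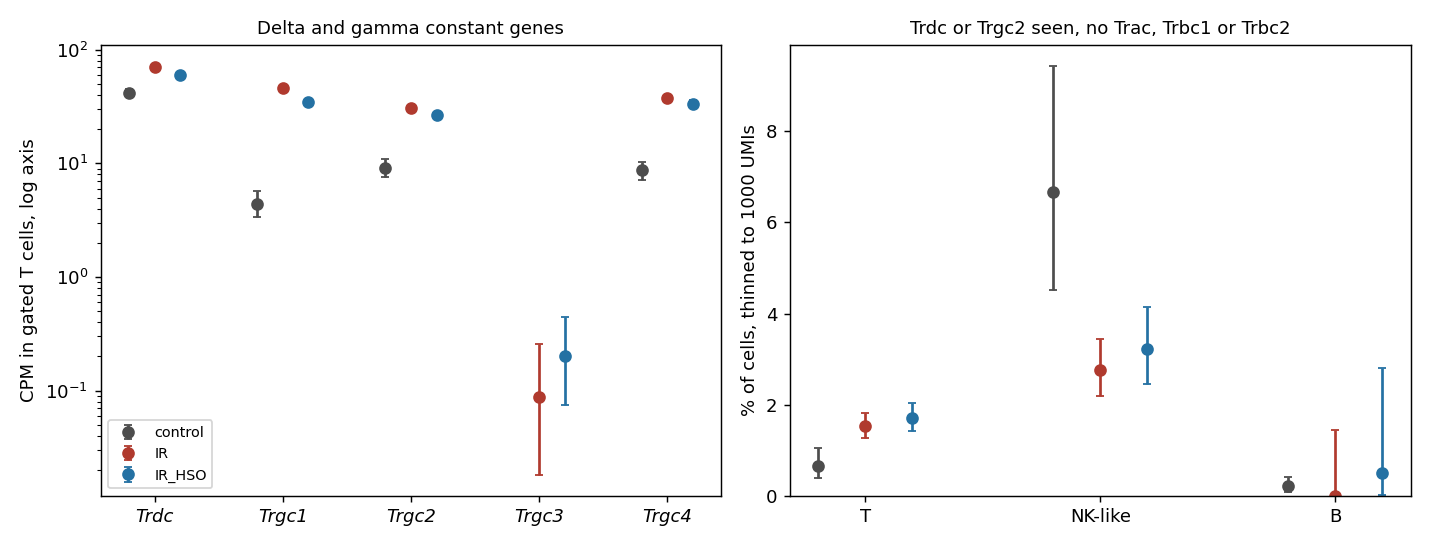
Left, CPM (log axis) of Trdc and the gamma constant genes in gated T cells, with 95% Poisson intervals. Right, percent of cells thinned to 1000 UMIs with Trdc or Trgc2 seen and no alpha-beta chain seen, with exact 95% intervals. The T gate shows 0.656%, 1.53% and 1.70% in control, IR and IR_HSO, below the NK-like gate in each library.

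Few T cells showed a gamma-delta chain alone. A UMI of Trdc or Trgc2 without one of Trac, Trbc1 or Trbc2 was seen in 17 of 2592 thinned T cells of control, 0.656% [0.383, 1.05], with the exact Clopper-Pearson interval. It was seen in 125 of 8165 in IR, 1.53% [1.28, 1.82], and in 119 of 6985 in IR_HSO, 1.70% [1.41, 2.04]. IR and IR_HSO overlapped and control lay below both. The share in thinned NK-like cells was larger, 6.67% [4.51, 9.43], 2.77% [2.19, 3.44] and 3.21% [2.45, 4.13]. In thinned B cells it was 0.208% [0.0899, 0.410] in control, 0% [0, 1.44] of 254 cells in IR and 0.508% [0.0129, 2.80] in IR_HSO. The background of IR_HSO is thus known only to that width. Thinning discards UMIs, so a thinned cell without an alpha-beta UMI may have held one before. Unthinned, at unequal depth, the T cell shares were smaller, 0.305%, 0.751% and 0.750%, with 8 of 2625 cells in control and 65 of 8657 in IR. The share of all thinned T cells with an alpha-beta UMI differed between libraries, as given below, and its part here was not tested. Thinned without Ncr1 cells, the shares were 0.329% [0.142, 0.646], 1.39% [1.12, 1.70] and 1.51% [1.22, 1.85].

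Cells with a gamma-delta chain held an alpha-beta chain about as often as all T cells did when unthinned. Unthinned, an alpha-beta UMI was seen in 95.7% [91.7, 98.1], 95.03% [93.7, 96.1] and 94.3% [92.6, 95.7] of the 187, 1307 and 940 T cells with Trdc or Trgc2, and in 96.6%, 94.7% and 94.2% of all T cells. Thinned, it was seen in 79.0% [68.5, 87.3], 76.9% [73.1, 80.4] and 69.9% [65.2, 74.4] of the cells with Trdc or Trgc2 and in 86.8% [85.4, 88.0], 84.9% [84.1, 85.7] and 79.6% [78.6, 80.5] of all T cells, with intervals that overlapped in control and lay apart in IR and IR_HSO. Among thinned cells with Trdc, Trbc1 or Trbc2 was seen in 71.4% [58.7, 82.1], 71.6% [66.8, 76.1] and 64.5% [58.5, 70.1]. Trac was seen in 19.0% [10.2, 30.9], 13.8% [10.5, 17.7] and 11.96% [8.37, 16.4] of them, against 41.5%, 35.1% and 30.1% of all thinned T cells.

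T cells with Trdc and no Trac carried NK genes. Of 80, 490 and 395 such cells, 53.8%, 44.5% and 32.7% had Ncr1 and 56.2%, 52.2% and 40.8% had Tyrobp, an adaptor of NK receptors. Among T cells with Trac and no Trdc, Ncr1 was seen in 1.13%, 9.42% and 6.54%. Cd3d was seen in 37.5%, 65.5% and 67.3% of the cells with Trdc and no Trac, lowest in control, at median depths of 4142, 3732.5 and 4193 UMIs.

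The IR to control ratio of Trdc lay above 1 in cells with a coreceptor and below 1 in cells with neither coreceptor nor Ncr1. Cells with Cd4 and no Cd8a or Cd8b1 numbered 909, 2761 and 2535, and those with Cd8a or Cd8b1 and no Cd4 856, 670 and 662. Cells with neither, from which cells holding Ncr1 were also left out, numbered 612, 3875 and 3104. The Cd4 and Cd8 cells kept those with Ncr1, so the subsets are not alike in this. Trdc was at 2.36 [1.80, 3.13] in Cd4 cells, 3.11 [2.44, 3.99] in Cd8 cells and 0.870 [0.769, 0.987] in cells with neither. Trgc2 stood at 3.37 [1.93, 5.48] CPM in Cd4 cells of control and 3.62 [2.15, 5.72] in Cd8 cells, on 16 and 18 UMIs. Both levels are under 5 CPM, so Trgc2 entered the comparisons of these subsets with control only through the irradiated libraries. In IR it stood at 13.3 [11.3, 15.5] and 40.6 [33.8, 48.2] CPM, ratios of 3.93 [2.35, 7.04] and 11.2 [6.81, 19.5], and in cells with neither its ratio was 1.72 [1.37, 2.19]. The differences between subsets were not tested. Past 1.5-fold were 2, 2 and 1 of 9 members, with Trgc2 in each count, against 17.8%, 22.2% and 19.6% of genes.

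The CD3 and alpha-beta genes lay between 0.784 and 1.09 in Cd4 cells and between 0.926 and 1.15 in Cd8 cells. The lowest of these was Cd247 in Cd4 cells, 0.784 [0.730, 0.841], where it stood at 246 [232, 261] CPM in control and 193 [185, 201] in IR, while in Cd8 cells its ratio was 0.998 [0.890, 1.12]. The highest was Trbc1 in Cd8 cells, 1.15 [1.10, 1.21]. In IR_HSO against IR, 1 of 9 members was past 1.5-fold in Cd4 cells, Trdc, below IR at 0.604 [0.507, 0.716], with 15.1% of genes past it, and none was past it in Cd8 cells (15.6%) or in cells with neither (11.7%).

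In IR_HSO against control Trgc2 was past 1.5-fold in Cd4 cells at 4.50 [2.69, 8.05], against 27.8% of genes. In Cd8 cells Trdc was at 2.42 [1.88, 3.14] and Trgc2 at 9.10 [5.48, 15.95], against 27.8% of genes. Both Trgc2 ratios rest on the low control counts given above. In cells with neither coreceptor nor Ncr1, Trac was lower at 0.634 [0.598, 0.673], against 27.3% of genes. Ncr1 was seen in 1.21%, 10.3% and 6.82% of Cd4 cells and in 1.52%, 14.6% and 8.31% of Cd8 cells. It was seen in 1.25%, 9.86% and 5.21% of cells with at least 2 UMIs of Cd79a and Cd79b and no T gate gene. Median depths were 5090, 3770 and 3671 UMIs in Cd4 cells, 5714, 4126.5 and 4172.5 in Cd8 cells and 3685, 9001 and 8415 in the Cd79 cells. After irradiation the Cd79 cells were thus the deepest, so these shares are not at like depth. The part of Ncr1 in these ratios was not tested within the subsets.

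**Figure D4:**
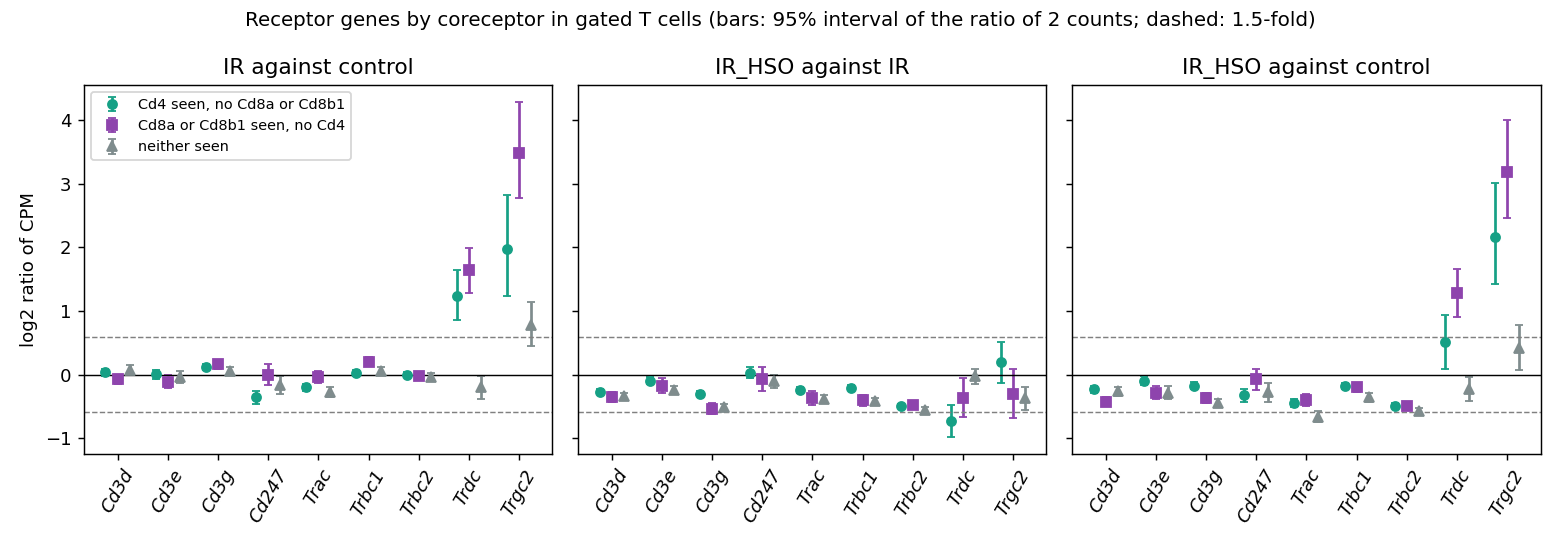
Log2 ratio of CPM for the 9 genes in gated T cells with Cd4, with Cd8a or Cd8b1, and with neither, in the 3 comparisons, with 95% intervals and dashed lines at 1.5-fold. Cells holding Ncr1 were left out of those with neither and kept in the others. Trdc in IR against control lies above 0 in the Cd4 and Cd8 cells and at a ratio of 0.870 in cells with neither.

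Trbc1 made up a larger part of the beta UMIs in IR_HSO than in control. A rearranged beta gene uses either constant gene, and the other chromosome can give transcripts of its own, so a cell may hold both. Among T cells with at least 5 beta UMIs, 2092, 5506 and 4054 cells, no Trbc1 UMI was seen in 31.1% [29.1, 33.1], 25.8% [24.6, 26.9] and 23.9% [22.6, 25.2] in control, IR and IR_HSO. Trbc1 UMIs were at least as many as Trbc2 UMIs in 33.5% [31.5, 35.6], 34.9% [33.7, 36.2] and 40.0% [38.4, 41.5], and Trbc1 alone was seen in 2.01% [1.45, 2.70], 2.65% [2.24, 3.11] and 3.95% [3.37, 4.59]. For the share with at least as many Trbc1 UMIs the control and IR intervals overlapped and IR_HSO lay above both. Over the beta UMIs of all cells of the T gate, whatever their number of beta UMIs, the share of Trbc1 was 35.2%, 36.9% and 39.9%. It was 34.8%, 35.8% and 38.7% without Ncr1 cells. Over the beta UMIs of all NK-like cells it was 55.0%, 47.2% and 51.1%.

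**Figure D5:**
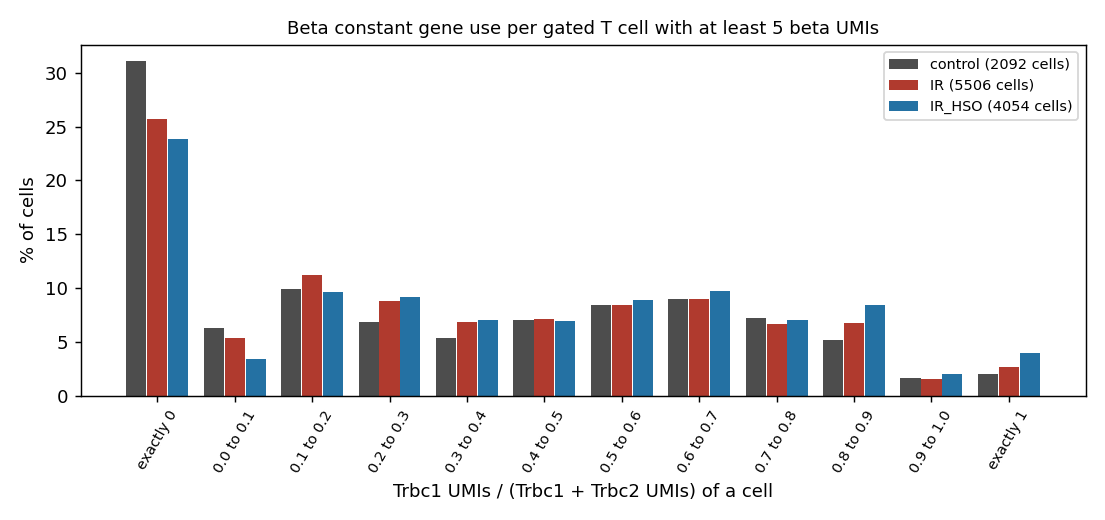
Percent of gated T cells with at least 5 beta UMIs by the fraction of those UMIs that were Trbc1, in the 3 libraries. At a fraction of exactly 0 lie 31.1%, 25.8% and 23.9% of the cells of control, IR and IR_HSO, and cells with mixed counts fill the range between the ends.

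The NK-like gate held receptor transcripts, and the distance to the T gate differed by gene. In control, T cells stood above NK-like cells by 9.56-fold [8.09, 11.4] for Trac, 7.21-fold [6.10, 8.59] for Cd3e, 4.70-fold [4.38, 5.06] for Trbc2, 2.09-fold [1.96, 2.24] for Trbc1 and 1.85-fold [1.63, 2.12] for Cd247. For Trdc the order was the other way, 41.7 [38.4, 45.3] CPM in T and 85.3 [73.9, 97.9] in NK-like cells. For Trac and Cd3e the distance was smaller after irradiation. In IR and IR_HSO it was 3.09-fold [2.95, 3.24] and 3.69-fold [3.46, 3.94] for Trac, and 2.87-fold [2.73, 3.02] and 3.996-fold [3.73, 4.29] for Cd3e. Cells that passed both gates counted on both sides, and their part in these distances was not tested. For Trdc the ratio of T to NK-like cells was 0.490 [0.416, 0.578], 0.885 [0.822, 0.953] and 0.995 [0.905, 1.09] in control, IR and IR_HSO, and the interval of IR_HSO includes 1. The levels of the 9 members in B cells were between 1.14% and 3.70% of the T cell level in control, 1.76% and 2.88% in IR and 2.91% and 7.08% in IR_HSO, where the background was highest and Trdc had the largest share.

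NK-like cells without any CD3 UMI, 337, 1531 and 1046 cells, still showed Trbc1 in 58.8%, 63.1% and 65.6%. Trbc2 was seen in 33.2%, 41.7% and 42.8% and Trdc in 29.4%, 18.1% and 16.2%, the latter most often in control. Trac was seen in 5.34%, 6.79% and 8.89% of them, against 3.53%, 8.98% and 12.5% of B cells, at median depths of 4106, 2899 and 3688.5 UMIs in those NK-like and 3676.5, 7994 and 8382 in the B cells. For Trac the share after irradiation was thus not above that in B cells, which were deeper.

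In IR against control the NK-like gate had 6 of 9 members higher by 1.5-fold or more, with 17.7% of all genes past it, 9.51% higher and 8.19% lower. Cd3d stood at 123 [109, 138], 292 [283, 301] and 193 [184, 202] CPM in control, IR and IR_HSO, Cd3e at 59.4 [50.0, 70.1], 138 [131, 144] and 87.9 [82.1, 94.0] and Trac at 60.2 [50.7, 71.0], 156 [149, 163] and 105 [98.9, 112]. Each was lowest in control and highest in IR. The IR to control ratios were 2.38 [2.11, 2.69], 2.32 [1.95, 2.77] and 2.58 [2.18, 3.08], and those of Cd3g, Trbc2 and Trgc2 were 2.20 [1.96, 2.47], 1.998 [1.86, 2.15] and 1.90 [1.12, 3.48]. Cd247 at 1.16 [1.02, 1.34], Trbc1 at 1.47 [1.37, 1.57] and Trdc at 0.931 [0.7996, 1.09] lay between.

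Of the 442, 3040 and 1868 NK-like cells of control, IR and IR_HSO, 157, 1526 and 960 also passed the T gate. Among these shared cells 11, 364 and 180 were marked for the highest doublet scores. The part of shared cells and doublets in the ratios of the NK-like gate was not tested. The 10 T cell markers summed to 1599, 1911 and 1889 CPM in the NK-like gate and the 10 NK markers to 15600.2, 13328 and 10545. In IR_HSO against IR, Cd3d at 0.661 [0.625, 0.699], Cd3e at 0.639 [0.588, 0.694] and Cd3g at 0.610 [0.576, 0.646] were past 1.5-fold, all below IR, 3 of 9 members against 9.33% of genes. In IR_HSO against control 3 of 9 were past 1.5-fold, all above control, Trac at 1.75 [1.46, 2.10], Cd3d at 1.57 [1.39, 1.79] and Trgc2 at 2.59 [1.53, 4.74], against 24.8% of genes.

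Rearranged segments were counted at low depth. Alpha variable genes (Trav) had 1166, 1951 and 1558 UMIs in the T gate, or 84.2, 56.9 and 52.7 CPM, highest in control, with an IR to control ratio of 0.675 [0.628, 0.727]. Beta variable genes (Trbv) had 759, 1601 and 1458 UMIs, or 54.8, 46.7 and 49.3 CPM, a ratio of 0.851 [0.780, 0.929]. Of 35 Trbv genes, 22, 23 and 23 had a UMI, and the effective number of genes, the exponential of the Shannon entropy, was 16.2, 15.3 and 17.1. For Trav it was 51.4, 53.3 and 53.5 over 130 genes.

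The most frequent Trbv genes of control were Trbv2, Trbv13-2, Trbv3, Trbv12-2 and, tied, Trbv16 and Trbv19. Trbv2 made up 14.9% [12.4, 17.6], 15.4% [13.6, 17.2] and 10.8% [9.22, 12.5] of Trbv UMIs in control, IR and IR_HSO, lowest in IR_HSO. Trbv13-2 made up 11.1% [8.92, 13.5], 14.1% [12.4, 15.9] and 8.37% [6.997, 9.91], highest in IR. Trbv19 made up 6.59% [4.93, 8.59], 6.43% [5.28, 7.75] and 10.3% [8.78, 11.96], highest in IR_HSO. Trbv16 made up 6.59% [4.93, 8.59], 3.31% [2.49, 4.31] and 4.32% [3.34, 5.49], while Trbv3 at 8.56%, 9.31% and 8.30% and Trbv12-2 at 7.11%, 6.81% and 8.30% were close in all 3. The leading Trav genes of control were Trav13-1 at 4.72%, 3.84% and 2.63%, Trav16n at 4.55%, 3.74% and 5.78%, Trav16 at 4.55%, 3.69% and 4.17%, Trav4-4-dv10 at 4.12%, 4.41% and 2.89% and Trav6-7-dv9 at 4.03%, 3.59% and 4.88%. The mouse Trav locus holds duplicated genes, so counts of single Trav genes are uncertain.

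Gamma variable genes (Trgv) stood above control in both irradiated libraries, with 128, 945 and 816 UMIs, an IR to control ratio of 2.98 [2.47, 3.61] and an IR_HSO to IR ratio of 1.002 [0.911, 1.10]. In the latter comparison Trgc1 was at 0.756 [0.698, 0.818] and Trgc4 at 0.897 [0.825, 0.975], so the interval of Trgv lay above that of Trgc1 and overlapped those of Trgc2 and Trgc4. Trgv2 gave 74.2%, 71.5% and 79.2% of the Trgv UMIs. Delta variable genes (Trdv) had 81, 270 and 328 UMIs, at ratios of 1.35 [1.05, 1.75] for IR to control and 1.41 [1.196, 1.66] for IR_HSO to IR. Within them Trdv4, named after its values were seen, had 12, 140 and 124 UMIs, an IR to control ratio of 4.71 [2.61, 9.33]. Trav11, also named after its values were seen and known as the alpha variable gene of invariant NKT cells, had 6, 87 and 14 UMIs. Its ratio was 5.85 [2.58, 16.4] for IR to control and 0.187 [0.0980, 0.330] for IR_HSO to IR.

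Among genes that work with the receptor, the CD8 coreceptor genes lay furthest below control in the T gate. Of 41 symbols listed for such genes, Gads is an alias of Grap2 and was not matched, and the other 40 were matched in the files and had at least 5 CPM. In IR against control, 1 was higher, 4 were lower and 35 lay between, where 13.5% of all genes were higher and 3.01% lower, with a median log2 ratio of -0.04 against 0.16 over all genes. The higher one was Ptpn22, a phosphatase that restrains receptor signalling, at 1.61 [1.53, 1.68]. The lower ones were the CD8 coreceptor genes Cd8b1 and Cd8a at 0.163 [0.155, 0.172] and 0.232 [0.218, 0.248], Themis, a regulator of T cell selection, at 0.626 [0.595, 0.659], and Grap2, an adaptor that joins LAT to SLP-76, at 0.634 [0.605, 0.664]. Lck, the kinase that phosphorylates CD3, stood at 595, 476 and 314 CPM in control, IR and IR_HSO, lowest in IR_HSO. Zap70, the kinase that binds the phosphorylated chains, stood at 86.2, 111 and 115 CPM, lowest in control.

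In IR_HSO against IR, 0 of the 40 were higher and 2 were lower, beside 5.7% and 4.56% of all genes. These were Lck at 0.659 [0.643, 0.676] and Trat1, an adaptor bound to the receptor complex, at 0.654 [0.610, 0.701]. The median was 0.02 on the log2 scale, and 0.02 over all genes. In IR_HSO against control 3 were higher and 8 lower, beside 18.8% and 5.16% of all genes. The higher ones were Ptpn22 at 2.21 [2.11, 2.32], Ubash3b at 1.76 [1.57, 1.98] and Sla at 1.68 [1.57, 1.79]. Of the 8 lower genes the 6 furthest down were Cd8b1 at 0.169, Cd8a at 0.307, Themis at 0.508, Lck at 0.527, Ptpn6, also a phosphatase that restrains receptor signalling, at 0.554 and Trat1 at 0.567. The other two were Grap2 at 0.635 and, named after its value was seen, Cd5, a coreceptor that dampens the signal, at 0.635. The median was -0.09 against 0.18 over all genes.

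Of 8 genes for receptor assembly and rearrangement 4 were at or above 5 CPM, and of these Calr, an endoplasmic reticulum chaperone, was past 1.5-fold in 1 comparison, at 0.631 [0.612, 0.651] in IR_HSO against IR, where 10.3% of all genes were. Of the transcription factors of T cell development examined, 10 were at or above 5 CPM. Zbtb16, which encodes PLZF of innate-like T cells, stood at 4.19, 20.9 and 18.1 CPM in control, IR and IR_HSO. Its control level is under 5 CPM, so it entered the comparisons with control only through the irradiated libraries, and its ratios of 4.98 [3.81, 6.63] for IR and 4.32 [3.29, 5.76] for IR_HSO are given as values only. In IR against control, where 16.5% of all genes were past 1.5-fold, Tcf7 and Lef1, factors of naive T cells, were lower at 0.666 [0.645, 0.686] and 0.654 [0.636, 0.673]. Gata3 was at a CPM ratio of 1.51 [1.40, 1.63] there and fell just short once 1 CPM was added to each side. In IR_HSO against IR 10 of the 10 lay between, near the background, as 10.3% of all genes were past 1.5-fold. Lef1 at 0.667 [0.648, 0.687] lay just short of 1.5-fold lower in that comparison. In IR_HSO against control, where 24% of all genes were, Gata3 at 1.80 [1.67, 1.95] was higher and Lef1 at 0.436 [0.423, 0.451] was lower.

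The genes whose levels most resembled those of Cd3e included 3 other members. Pearson's r of log2(CPM + 1) with Cd3e over 9 points, the T, NK-like and B gates of the 3 libraries, was highest for Trac at 0.999, Cd3d at 0.997, Cd6 at 0.996, Cd3g at 0.994 and Nsg2 at 0.992, of 11847 genes. For the other members r was 0.989 for Trbc2, 0.957 for Trbc1, 0.949 for Cd247, 0.928 for Trgc2 and 0.863 for Trdc. Points of 1 library share its depth and free RNA, and the T and NK-like gates share cells, so this describes these libraries only.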

How the data were processed

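The authors deposited raw counts of UMIs for each gene in each barcode. Per the file headers they come from Cell Ranger 7.0.1, and per the submitters' processing notes from GRCm39. Alignment settings, annotation and read length are not given in the sources used here. The libraries held 47298108, 50836313 and 45636807 UMIs over 9520, 13509 and 12710 barcodes. Barcodes with under 500 UMIs or with 10% or more mitochondrial UMIs were removed, which left 9163, 12866 and 10608 cells. Doublets were left in, and an alternative removed the cells with the highest scores.

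Counts were summed per gate and scaled to CPM of the gate. Levels have exact Poisson, shares Clopper-Pearson and ratios exact conditional intervals, at 95%. A gene was called higher or lower at 1.5-fold with 1 CPM added to each side, if it had at least 5 CPM in either library. Thinning drew 1000 UMIs per cell with a fixed seed. The ratio and interval step was tested on simulated counts, and the thinning step on gated T cells of IR. Python 3.11.15, numpy 2.4.6, scipy 1.17.1, pandas 2.3.3, scanpy 1.11.5 (doublet scores) and matplotlib 3.10.9 were used. Named were all members, up to 6 genes each way per list past 1.5-fold, the 5 leading Trav and Trbv genes of control with ties, and the 5 genes most like Cd3e. Some listed items are not reported here. Members, lists and rules were chosen with earlier results of these data known.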

Additional observations from a re-analysis of the deposited data

Results flagged for a closer look

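Among barcodes that pass the T gate genes, 8.71% [8.10, 9.36] of those of IR_HSO had 10% or more mitochondrial UMIs and were removed, against 3.74% [3.06, 4.52] in control and 3.33% [2.97, 3.72] in IR. This was picked out because the removed barcodes take no part in the comparisons and their share lies above that of control. The 687 removed IR_HSO barcodes had a median of 983 UMIs, 48.5% held a UMI of Cd3d, Cd3e or Cd3g, and these 3 genes together stood at 899.5 CPM in them against 1591 in the kept cells. The 102 control barcodes had 47.1% with a CD3 UMI and 769 CPM against 2060.3. The 298 of IR had 62.8% and 1008 CPM against 1985.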

How the results depend on the processing

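In IR against control the count of members past 1.5-fold was 1 when centred on the median of all genes and 1 in thinned cells, with Trgc2 left. In IR_HSO against control it was 2 without Ncr1 (Trdc, Trgc2), 2 with CD3 and without Ncr1 (Trdc, Trgc2; chosen after seeing the data), 2 under 5% mitochondrial UMIs and 2 less the B cell level (Trac, Trgc2), 3 with the total reduced as in the report (Trac, Trbc2, Trgc2) and 4 when centred (Cd3d, Trac, Trbc2, Trgc2). In IR_HSO against IR it stayed at 0 in every setting run. The share of T cells with a gamma-delta chain and no alpha-beta chain was 0.305%, 0.751% and 0.750% unthinned in control, IR and IR_HSO. It was 0.329% in control without Ncr1, 1.24% and 1.27% in IR and IR_HSO with Trdc only, 1.10% and 1.24% thinned to 2000 UMIs, and 1.27% in IR with at least 2 UMIs of the gate genes. With Trac as the only alpha-beta chain, chosen after seeing the data, it was 2.28%, 5.50% and 4.80%. Except where a setting is defined by fewer cells or another total, the cause was not tested. Over the settings the IR to control log2 ratio of Trdc ran from 0.55 to 0.80 and that of Trgc2 from 1.29 to 1.90, while those of Cd3e, Cd3g, Trbc1 and Trbc2 lay on both sides of 0. No paired analysis was possible because each group had 1 library, and no replicate could be left out. Differences between mice, between libraries and between treatments cannot be told apart.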
